A study of Mus musculus with 167 samples.

Results

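Erythrocyte (RBC) fractions of blood from sham-irradiated mice were compared with heart, lung and brain of the same animals, to find which miRNA were kept in red cells and which were near absent. All RBC libraries of sham animals were taken, 23 of the 167 libraries of the series, and each was paired by animal code with the 3 organ libraries of that animal (69 organ libraries). The animals were 8 C3H (C3Hf/Sed/Kam) females, sampled at month 4, and 8 males and 7 females of C57 (C57Bl/6), sampled at month 6. Per the study's methods the mice were gnotobiotic, and males were 8 to 10 and females 10 to 12 weeks old at the time of exposure. Sham animals received no thoracic dose. Organs were taken as whole pieces after a saline infusion. Blood cells were parted from plasma by centrifugation alone, so the RBC fraction was not sorted. Strain and month could not be told apart, and sex was comparable within C57 alone. The labels name no transgene or deletion, and per the methods mice were anaesthetised with ketamine and xylazine before irradiation and with isoflurane for bleeding.

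MiRNA are short RNA that guide Argonaute proteins to mRNA, chiefly through the seed, bases 2 to 8 counted from the 5′ end. Hairpins often lie in clusters that are transcribed together, and related hairpins give mature miRNA with the same seed. Mouse red cells lose their nucleus before they enter the circulation, so their miRNA were made earlier, in the erythroid precursors, and cannot be renewed by transcription. Solid organs mix many cell types, each with miRNA of its own, such as muscle, endothelium, epithelium, fibroblasts and neurons.

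The sequences below are shown because several with the same seed differed in direction between RBC and organs. Mature sequences were those of RefSeq (GRCm38.p6, the mm10 assembly), of which 385 of the 440 miRNA tested had an entry by name (87.5%). The seed is in capitals. Members of the miR-15/16 family share the seed AGCAGCA, and the first 3 listed here were higher in RBC than in organs while the next 2 were lower.
miR-16-5p: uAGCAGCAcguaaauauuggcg
miR-15a-5p: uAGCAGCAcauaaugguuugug
miR-15b-5p: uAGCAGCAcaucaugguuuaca
miR-195a-5p: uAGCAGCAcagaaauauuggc
miR-497a-5p: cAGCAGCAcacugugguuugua

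Members of the let-7 family share the seed GAGGUAG. Of these 5, let-7i-5p was higher in RBC, let-7a-5p and let-7f-5p were close to the organ level, and let-7c-5p and let-7e-5p were lower.
let-7i-5p: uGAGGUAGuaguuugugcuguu
let-7f-5p: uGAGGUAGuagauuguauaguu
let-7a-5p: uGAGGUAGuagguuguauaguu
let-7c-5p: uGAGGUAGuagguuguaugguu
let-7e-5p: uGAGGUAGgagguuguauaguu

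Leading miRNA of the erythroid list and of the miR-17-92 and miR-106b-25 clusters are shown because, apart from miR-20a-5p, they were among the most abundant or the most enriched in RBC.
miR-144-3p: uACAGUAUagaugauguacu
miR-451a: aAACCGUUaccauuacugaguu
miR-93-5p: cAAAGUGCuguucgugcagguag
miR-20a-5p: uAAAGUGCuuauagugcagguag
miR-25-3p: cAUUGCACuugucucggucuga
miR-92a-3p: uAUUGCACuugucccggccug

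A further 3 pairs are shown for contrast. MiR-103-3p and miR-107-3p differ by G22C (position counted from the 5′ end, the base of miR-103-3p first), and miR-30a-5p and miR-30a-3p are the arms of 1 hairpin. MiR-126a-3p and miR-27b-3p were abundant in all 3 organs and low in RBC.
miR-103-3p: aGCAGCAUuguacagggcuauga
miR-107-3p: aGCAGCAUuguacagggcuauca
miR-30a-5p: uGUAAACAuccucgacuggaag
miR-30a-3p: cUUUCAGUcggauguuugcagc
miR-126a-3p: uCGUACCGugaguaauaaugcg
miR-27b-3p: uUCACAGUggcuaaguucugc

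Sham libraries held 2551217 to 4702286 miRNA reads in RBC, 1944992 to 3647077 in heart, 2024219 to 4328330 in lung and 1794995 to 3764289 in brain. Levels are given as RPM, the read count scaled to a common total of miRNA reads, so each value is a share of its library, and fewer cells of a type cannot be told apart from less RNA per cell. The RBC library of animal 1085, a C57 female, stood apart from the other RBC libraries, with a median absolute deviation of 0.81 on the log2 scale over 135 miRNA against a median of 0.32 over the RBC libraries. The lung library of animal 1052, a C57 male, stood apart from other lung libraries in the same way (0.66 against a median of 0.27). Without both animals, 59 miRNA were called higher and 315 lower in RBC than in the organ mean, against 60 and 315 with them. The label was checked against markers: 6 erythroid miRNA that passed the filter and miR-486b-3p summed to 35562 to 112191 RPM in RBC and to 2812 RPM at most in any organ library. The fraction was not free of leukocyte markers. MiR-150-5p, miR-223-3p and miR-155-5p together gave 84.6 to 496.5 RPM in RBC and 328 to 4391 RPM in the 16 sham leukocyte (WBC) libraries, which themselves held erythroid miRNA at 26048 to 112803 RPM. The part of white cells in the RBC values was not tested.

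RBC libraries were made up of few miRNA. MiR-16-5p, a regulator of cyclins and of BCL2, took 44.0% ± 8.29 of RBC reads (SD, n = 23), from 32.5% to 55.9%, and let-7i-5p a further 15.5% ± 5.63. Next came miR-93-5p (6.61% ± 1.19), let-7f-5p (5.70% ± 1.18), miR-25-3p (4.26% ± 0.838), let-7a-5p (3.28% ± 0.582), miR-21a-5p (2.62% ± 0.783), miR-142a-5p (2.13% ± 0.691), miR-144-5p (1.62% ± 0.664) and miR-144-3p (1.51% ± 0.444). These 10 miRNA held 87.1% ± 2.02 of RBC reads. MiR-16-5p led every RBC library.

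The share of the leading 10 miRNA of each library was 87.4% ± 1.78 in RBC, 79.6% ± 2.48 in heart, 74.7% ± 2.38 in lung and 58.7% ± 1.81 in brain. Per animal, RBC exceeded the mean of the organs by 16.3 percentage points (± 2.08 SD), in 23 of 23 animals. The effective number of miRNA, the exponential of Shannon's entropy, was 9.49 ± 1.88 in RBC and 24.6 ± 1.31 in the organ mean, and was lower in RBC in 23 of 23 animals. Thinned to an equal depth of 1794995 reads, an RBC library was expected to hold 342.2 ± 19.05 miRNA with at least 1 read, against 517.4 ± 10.9 for the organ mean. Each of the 4 measures, with the share of the leading miRNA, gave p = 2e-05 in a two-sided sign-flip permutation test over the animals (n = 23, adjusted p = 2e-05), which is the smallest value that 100000 resamples can give.

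**Figure D1:**
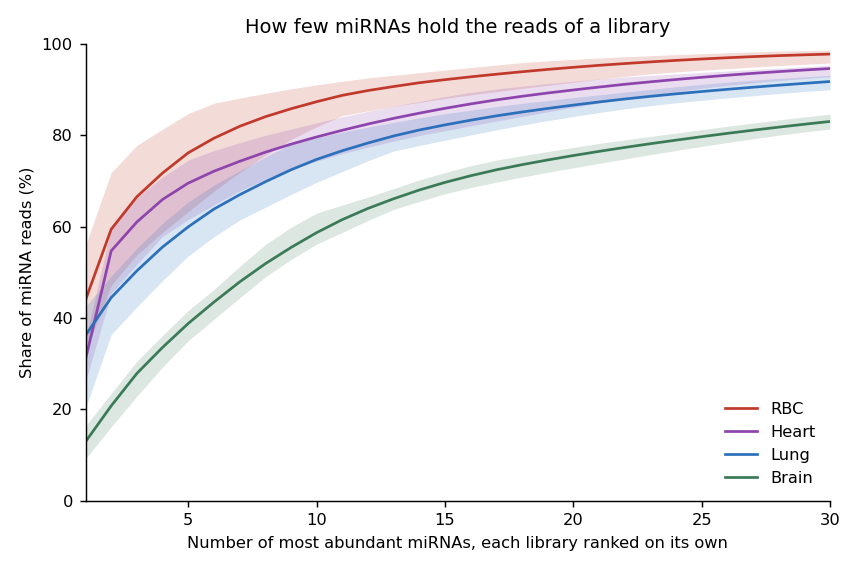
Cumulative share of miRNA reads (y axis, percent) held by the most abundant miRNA of each library (x axis, 1 to 30 miRNA) in sham RBC, heart, lung and brain. Lines are means of 23 libraries and bands run from the lowest to the highest library. At 10 miRNA the RBC mean was 87.4% and the brain mean 58.7%.

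To compare single miRNA, the log2 RPM of RBC minus the mean log2 RPM of heart, lung and brain was taken in each animal, with 0.5 added to each count, and tested with limma with Benjamini-Hochberg adjustment. Of 440 miRNA that passed a filter on low counts, 60 were higher in RBC (13.6%) and 315 were lower (71.6%) at an adjusted p under 0.05 and a difference of at least 1.17 on the log2 scale, so 85.2% were called in either direction. A further 65 were not called. The median miRNA was 3.06 lower in RBC on the log2 scale. RPM are shares of a library, and miR-16-5p alone took 44.0% of RBC reads. With miR-16-5p, miR-126a-3p and miR-1a-3p left out of the totals, 61 miRNA were higher and 313 lower. TMM factors raised the median by 1.28 and gave 97 higher and 260 lower, and quantile normalisation gave 32.7% higher and 34.1% lower. Signs are therefore given on the RPM scale, and counts of list members are to be read beside the 13.6% higher and 71.6% lower of all miRNA tested. A member low in RBC can pass the filter through the organs alone, so the counts and medians of lists that were lower are descriptions. In 33 miRNA the lowest RBC library lay above every organ library, and in 112 the highest RBC library lay below every organ library.

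The comparisons with single organs used the same RBC libraries and are not independent of each other. RBC showed 78 miRNA higher and 233 lower than heart (17.7% and 53.0% of those tested, 70.7% together), 67 higher and 257 lower than lung (15.2% and 58.4%, 73.6% together), and 55 higher and 317 lower than brain (12.5% and 72.0%, 84.5% together). Set against whichever organ was highest in each animal, 44 miRNA were still higher in RBC (10%). Set against the lowest organ, 185 were still lower (42.0%).

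**Figure D2:**
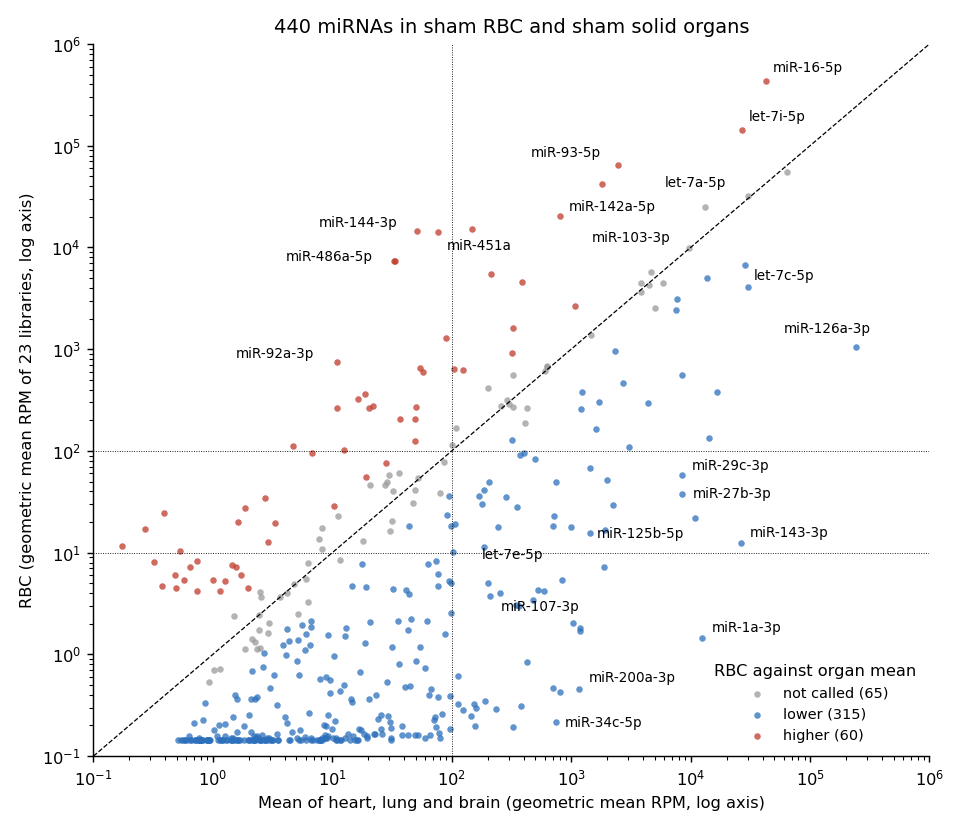
Level of each of 440 miRNA in sham RBC (y axis, RPM, log axis) against the mean of heart, lung and brain (x axis, RPM, log axis). Points are geometric means of 23 animals, coloured by the limma call, the dashed line marks equal levels, and dotted lines mark 10 and 100 RPM in RBC and 100 RPM in organs. The 60 miRNA called higher include miR-16-5p at 432011 RPM, and most of the 315 called lower form a band near the lowest measurable level.

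The erythroid miRNA rose most. All 6 tested members of the list were higher in RBC, beside 13.6% of all miRNA tested. Their median log2 difference was 7.64 against -3.06 over all miRNA tested, and the count was 6 of 6 under TMM and quantile scaling too. Mir144 and Mir451a are 2 hairpins of 1 transcript that the erythroid factor GATA1 switches on, at chr11:78073005-78073070 and chr11:78073170-78073241 (plus strand, outside annotated host genes). MiR-451a, which is cut by Argonaute 2 in place of Dicer, was at 6796 to 41117 RPM in RBC (median 14092), 36.5 to 882 in heart, 23.02 to 561 in lung and 5.84 to 147 in brain. The lowest RBC library was above the highest organ library. The log2 difference was 7.51 ± 0.18 (SE, adjusted p = 1.3e-25), or 10.58 relative to the median miRNA. MiR-144-3p ran from 9566 to 24802 RPM in RBC, with medians of 124.5 (heart), 51.3 (lung) and 21.1 RPM (brain), and gave the largest rise of the miRNA at 100 RPM or more in RBC, 8.15 ± 0.16 (SE). Its other arm, miR-144-5p, rose by 6.67 ± 0.15.

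MiR-486a-5p, the product of a hairpin in the ankyrin 1 gene of red cells, was at 2749.6 to 14311 RPM in RBC and at 450.3 RPM at most in an organ library, a log2 difference of 7.79 ± 0.24. MiR-486b-5p had almost the same total of reads (656365 against 655134 for miR-486a-5p over the 23 RBC libraries). How reads that fit both were assigned is not stated, so the pair counts as 1 signal. The 3p arm, miR-486a-3p, had a geometric mean of 7.18 RPM in RBC and 0.644 RPM in organs (log2 difference 3.48 ± 0.19), and it was not called against heart.

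Most of the miR-17-92 cluster and its relatives rose. These hairpins promote the growth of blood precursors. Of 12 tested members, 11 were called higher, beside 13.6% of all miRNA tested, and 0 lower (median log2 difference 3.95), and miR-20b-5p missed the fold limit (1.02 ± 0.14). MiR-93-5p and miR-25-3p come with miR-106b-5p from 3 hairpins inside the gene of the DNA replication helicase subunit Mcm7 (chr5:138165321-138165818, minus strand, 2 of them overlapping an annotated exon). MiR-93-5p was at 45319 to 86962 RPM in RBC and 1171 to 4701 RPM in the organ libraries, and miR-25-3p at 22444 to 55622 against 1113 to 2853 RPM. Neither overlapped. The log2 differences were 4.73 ± 0.09 for miR-93-5p, 4.53 ± 0.07 for miR-25-3p and 4.28 ± 0.18 for miR-106b-5p.

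The list summed to 85972 to 142905 RPM in RBC and to 93212 to 137224 RPM in WBC, and the ranges overlapped.

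Of 10 tested miRNA of the Mir17hg cluster on chromosome 14, 9 were higher, by 2.34 to 6.11, and miR-92a-1-5p was not called (-1.06). MiR-19b-3p and miR-92a-3p, the ends of that range, also come from a cluster on the X chromosome, and their mature forms do not tell which. MiR-92a-3p had a median of 816 RPM in RBC and of 11.2, 25.1 and 5.87 RPM in heart, lung and brain, a log2 difference of 6.11 ± 0.16 (SE). MiR-18a-5p (4.60 ± 0.14), miR-19a-3p (4.31 ± 0.27), miR-17-5p (3.61 ± 0.16), miR-20a-5p (3.57 ± 0.12) and miR-19b-3p (2.34 ± 0.23) also rose. MiR-25-3p and miR-92a-3p, which share the seed AUUGCAC, stood at 1808 and 11.0 RPM in the organ mean and at 41669.8 and 754 RPM in RBC.

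MiR-142a is used as a marker of all blood-forming lineages. Its 5p arm ran from 10442 to 37555 RPM in RBC, above the highest organ library (8002 RPM, in heart), and rose by 4.65 ± 0.13 on the log2 scale, while the 3p arm rose by 4.67 ± 0.12. In the WBC fraction miR-142a-5p ran from 7850.2 to 22857 RPM and miR-142a-3p from 4059 to 9521 RPM, ranges that overlapped those of RBC. Other leukocyte miRNA did not follow it against the organ mean on the RPM scale. MiR-150-5p, known from mature lymphocytes, had a median of 86.7 RPM in RBC, 345 in WBC, and 354, 377.4 and 366 in heart, lung and brain, and was lower in RBC than in organs by 2.03 ± 0.23. MiR-155-5p, induced in activated leukocytes, was lower by 2.89 ± 0.18, and miR-223-3p, of granulocytes and monocytes, differed by 0.20 ± 0.21 and was not called. Over the list of 5, 2 were higher, 2 lower and 1 not called, and under quantile scaling miR-150-5p and miR-155-5p turned positive (0.26 and 0.63) without being called. The list had 3 higher and 1 lower under TMM scaling, and 3 higher and 0 lower under quantile scaling. Against heart and against lung 2 were higher and 2 lower, and against brain 3 were higher and 1 lower.

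Further miRNA called higher at 100 RPM or more in RBC included miR-130b-3p (111 against 4.70 RPM, log2 difference 4.55 ± 0.17), miR-186-5p (1607 against 325 RPM) and miR-425-5p (643 against 105 RPM). In all, 32 of the 74 miRNA with at least 100 RPM in RBC were called higher, 18 lower and 24 neither. Of all miRNA tested 13.6% were higher and 71.6% lower, and a choice by RBC level favours miRNA that are high there.

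Family members with the same seed parted ways. In the miR-15/16 family, miR-16-5p was at 324564 to 559051 RPM in RBC and had organ medians of 40359.6 (heart), 63039 (lung) and 31306 RPM (brain), with no overlap and a log2 difference of 3.34 ± 0.09 (adjusted p = 1.3e-24). MiR-15b-5p rose by 3.85 ± 0.15 and miR-15a-5p by 3.39 ± 0.15. MiR-16-5p is made from 2 hairpins, Mir16-1 in Dleu2 (chr14:61631880-61631972, minus strand, exon) and Mir16-2 beside Mir15b in an intron of Smc4, a condensin subunit (chr3:69009772-69009996, plus strand). Its mature form does not tell which. The star arm that does, miR-16-2-3p, was at 5.99 RPM in RBC and 0.484 RPM in organs (log2 difference 3.63), and miR-15b-3p at 95.4 and 6.78 RPM. The sum of the family had a median of 460648 RPM in RBC and of 434778 RPM in WBC, with overlapping ranges.

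By contrast, miR-195a-5p and miR-497a-5p, made from chr11:70234717-70235135, fell in RBC. MiR-195a-5p was at 3.14 to 50.2 RPM in RBC and at no less than 90.4 RPM in any organ library, a difference of -3.77 ± 0.25. MiR-497a-5p was lower by 2.18 ± 0.15, and miR-322-5p, from the X chromosome, differed by -0.70 ± 0.14 and was not called. Under TMM scaling miR-322-5p turned to 0.57, and under quantile scaling both miR-322-5p (1.43) and miR-497a-5p (0.52) turned positive. Of the 6 family members, 3 were called higher and 1 lower under TMM scaling, and 4 higher and 0 lower under quantile scaling.

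In the let-7 family, which restrains growth genes such as Lin28 and Hmga2, 1 of 9 tested members was higher, 2 were lower and 6 were not called. Let-7i-5p ran from 73932 to 251274 RPM in RBC and reached 60219 RPM at most in an organ library, and rose by 2.43 ± 0.10. Let-7a-5p (31651 RPM in the median RBC library) differed by 0.10 ± 0.06, and let-7f-5p (53588 RPM) by -0.21 ± 0.07. How reads that fit several let-7 members were assigned is not stated, so the values of members 1 base apart rest on it. Let-7c-5p differs from let-7a-5p by A19G and was lower by 2.09 ± 0.07, with 5414 to 9395 RPM in RBC and 34689 to 75658 RPM in brain. Let-7e-5p differs from let-7a-5p by U9G and had a median of 16.9 RPM in RBC against 485, 1436 and 4311 RPM in heart, lung and brain, a difference of -6.52 ± 0.22. Under TMM scaling 5 members were higher and 1 lower, with let-7f-5p at 1.07.

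In the miR-30 family miR-30e-5p was close to the organ level (4462 against 3821 RPM, 0.22 ± 0.13), whereas miR-30c-5p fell by 3.91 ± 0.13 (293 against 4417 RPM). Of 5 tested miR-30 members 3 were lower and 2 not called, which does not set the family apart from the 71.6% lower of all miRNA. All 3 miR-29 members, regulators of collagen mRNA, were lower, from miR-29b-3p (-3.94 ± 0.13) to miR-29c-3p (-7.21 ± 0.16). Among 13 seeds with at least 3 tested members in the sequence table, 6 had both a higher and a lower member. In 3 every member was lower and in none was every member higher, although AAAGUGC had 5 higher and 0 lower of 6. Among the mixed seeds, AGCAGCA had 0 members called lower under quantile scaling, and miR-130a-3p, the 1 lower member of AGUGCAA, changed sign there.

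**Figure D3:**
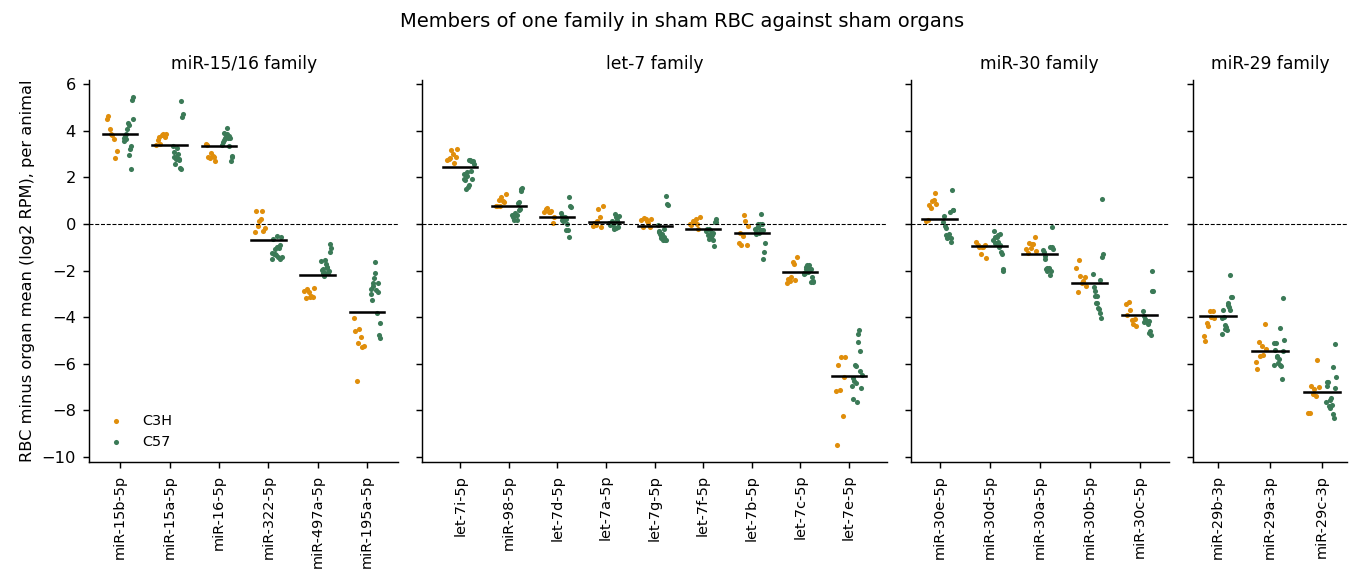
Log2 difference between RBC and the organ mean (y axis, log2 RPM) for tested members of 4 families, 1 point per animal (orange C3H, n = 8; green C57, n = 15) with a line at the mean of 23. In the miR-15/16 family the means run from 3.85 (miR-15b-5p) to -3.77 (miR-195a-5p), and in the let-7 family from 2.43 (let-7i-5p) to -6.52 (let-7e-5p).

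MiR-103-3p ran from 5874 to 13121 RPM in RBC, beside medians of 2979.9, 10228 and 32307 RPM in heart, lung and brain, and differed from the organ mean by 0.03 ± 0.08. MiR-107-3p, which lies in an intron of the pantothenate kinase gene Pank1 and differs at 1 base, had 1.65 to 9.02 RPM in RBC and 39.2 to 1126 RPM in organ libraries (-5.80 ± 0.14 on the log2 scale). This pair, chosen after its values were seen, shares its seed and rests on how reads were assigned to each name.

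To describe retention by level alone, miRNA with at least 100 RPM in the organ mean were sorted by their RBC level. Of 110 such miRNA, 54 kept at least 100 RPM in RBC (49.1%), 26 had 10 to 100 RPM and 30 had under 10 RPM and were called near absent (27.3%). With an organ minimum of 50 RPM, 56 of 149 were near absent, and with 100 RPM in the highest organ 111 of 210. The closest on either side of the limits were miR-99a-5p (7.22 RPM) and miR-181b-5p (10.1 RPM), and miR-532-5p (96.2 RPM) and miR-181a-5p (108.1 RPM). Some retained miRNA were level with the organs: miR-191-5p (1385 against 1466 RPM), miR-185-5p (689 against 627 RPM), miR-192-5p (671 against 631 RPM) and miR-7a-5p (606 against 605 RPM) differed by at most 0.14 on the log2 scale. Others were retained by that limit and still far below the organs.

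The clearest of the latter was miR-126a-3p, made in endothelium from the gene Egfl7 (chr2:26591357-26591429, plus strand). It was the most abundant organ miRNA, at 261110.0 to 352299 RPM in heart, 195541 to 425090.0 in lung and 91958 to 163619 in brain, and had 727 to 1795 RPM in RBC. The log2 difference was -7.85 ± 0.08 (adjusted p = 6.6e-34), and no library overlapped. Both endothelial miRNA of the list fell, beside 71.6% lower of all miRNA. The ranges of RBC and WBC overlapped for their sum (828 to 2018 and 845 to 5333 RPM).

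All 6 cardiac muscle miRNA were lower than the organ mean, beside 71.6% of all miRNA. Since 3 of the 6 had no read in any RBC library, they passed the filter through organs where they were high, and the count is a description. Against lung and against brain 5 of the 6 were lower, beside 58.4% and 72.0% of all miRNA. MiR-1a-3p, of striated muscle, was at 175321 to 289279 RPM in heart, 2648 to 7539.5 in lung and 1069 to 3166 in brain. RBC held 253 reads of it in 81570808 over the 23 libraries, and the log2 difference was -13.07 ± 0.38. MiR-133a-3p had 8 reads and a difference of -10.74 ± 0.18. MiR-208a-3p, from a cardiac myosin gene, had a median of 5921 RPM in heart and no read in RBC. Against a floor of 3 reads over all RBC libraries, it was at least 75954-fold lower in RBC than in the pooled organs, a bound set by heart. MiR-499-5p had a geometric mean of 8.34 RPM in RBC and 3.75 RPM in lung, and fell against the organ mean by 3.14 ± 0.22.

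All 5 mesenchymal miRNA were lower, beside 71.6% of all miRNA. Since 4 of them had 3 to 203 reads over all RBC libraries, the count is a description. MiR-143-3p of smooth muscle and fibroblasts was at 31409 to 73902 RPM in heart, 41731 to 74277 in lung and 6128 to 10350.2 in brain, and at 2.21 to 90.6 RPM in RBC (-11.04 ± 0.27). MiR-145a-5p, its neighbour, had 62 reads in RBC. MiR-199a-3p and miR-199b-3p had 203 and 215 reads, and nearly equal organ levels (1181 and 1177 RPM), so they are another pair that reads may not tell apart.

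Epithelial miRNA of 1 family differed in their RBC level, and all 5 of the list were lower than lung, beside 58.4% of all miRNA. MiR-200a-3p, which targets the transcription factors Zeb1 and Zeb2, was at 5944 to 21251 RPM in lung and 45 reads were found in RBC (-11.33 ± 0.36). MiR-200b-3p had 33 reads and miR-429-3p 22. From the other cluster of the family, on chromosome 6, miR-200c-3p was at 57.1 to 131 RPM in RBC, beside medians of 5.04, 624 and 5.11 RPM in heart, lung and brain. MiR-141-3p was at 121 to 859 RPM in RBC, beside medians of 33.7, 6018 and 169 RPM, and was 4.399 lower than lung. MiR-200c-3p was called higher than the geometric organ mean (1.41 ± 0.20) but was 3.01 lower than lung, and it turned to -1.52 with the arithmetic organ mean. In ciliated epithelium, miR-34c-5p was near absent (14 reads, -11.74 ± 0.23, beside 2814 to 10652 RPM in lung), while miR-449a-5p, with the same seed as miR-34b-5p, kept 13.5 RPM and was not called (0.81 ± 0.19), and turned to -1.23 with the arithmetic organ mean. All 5 of the ciliated list, miR-449a-5p among them, were lower than lung, beside 58.4% of all miRNA. Under TMM scaling 1 of the 5 was higher than the organ mean and 4 were lower.

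Of 12 neuronal miRNA 11 were lower than the organ mean, beside 71.6% of all miRNA, and 1 was not called. The count differed by organ: all 12 were lower than brain, 9 were lower and 1 higher than heart, and 6 were lower and 2 higher than lung. Of all miRNA tested, 72.0%, 53.0% and 58.4% were lower than brain, heart and lung. Since 4 of the 12 had no read in any RBC library, they passed the filter through the organs, and the count is a description. The sum of the list was 239 to 817 RPM in RBC and 247 to 772 RPM in lung, and the ranges overlapped. MiR-124-3p had a brain median of 3205 RPM and no read in RBC, at least 30103-fold below the pooled organs. MiR-9-5p was at 71309 RPM in brain and at 18.3 RPM in RBC. MiR-128-3p had a geometric mean of 376.2 RPM in RBC, 84.2 RPM in lung and 53605 RPM in brain, and fell against the organ mean by 1.71 ± 0.15. MiR-219a-5p of oligodendrocytes was not called (-0.78 ± 0.25) and turned positive under TMM (0.49) and quantile scaling (2.66).

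The Dlk1-Dio3 imprinted cluster on chromosome 12, which is silent in most adult tissues outside the nervous system, was at or near 0 in RBC. Its members were high in brain, which can carry a member through the filter, so the count against a mean that holds brain is a description. All 43 tested members of 45 were lower than that mean, beside 71.6% of all miRNA. Against heart 34 were lower and against lung 30, beside 53.0% and 58.4% of all miRNA, with 0 higher in either. Of the 45 members, 24 had no read in any RBC library. Their sum had a median of 1.11 RPM in RBC and 13.5 RPM at most, beside 38043 to 52974 RPM in brain, 361 to 607 in heart and 258 to 467 in lung. MiR-382-5p, at 7351 to 13712 RPM in brain, had 24 reads in RBC (-9.67 ± 0.25), miR-541-5p 7 and miR-411-5p 28. Under TMM scaling 40 of the 43 were lower, and under quantile scaling 31.

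The 5 members of the miR-99/100 and miR-125 list were lower (median -8.03), beside 71.6% of all miRNA. They ran from miR-125a-5p (-6.80 ± 0.27) to miR-100-5p (21 reads, -10.27 ± 0.27). MiR-125b-5p, a stem cell miRNA, had 6.89 to 57.6 RPM in RBC and at least 1243 RPM in each organ library. The 5 miRNA of the miR-23/24/27 clusters were lower (median -5.79), again beside 71.6% of all miRNA. MiR-27b-3p had 19.9 to 67.4 RPM in RBC against 5948 to 14282 RPM in organs (-7.83 ± 0.10). MiR-24-3p, from the same clusters, kept 164 RPM (-3.31 ± 0.12). Of the 15 miRNA named for the largest falls, those not yet given were miR-218-5p (43 reads, -10.87 ± 0.29), miR-335-5p (35 reads, -9.09 ± 0.29) and miR-30c-2-3p (15 reads, -9.21 ± 0.23). The size of such falls depends on the counts added before taking logs. With 5 in place of 0.5 the 15 falls ran from -6.54 (miR-30c-2-3p) to -11.90 (miR-1a-3p), and their order changed, with miR-143-3p (-10.85) ahead of miR-200a-3p (-9.29) and miR-34c-5p (-8.91).

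**Figure D4:**
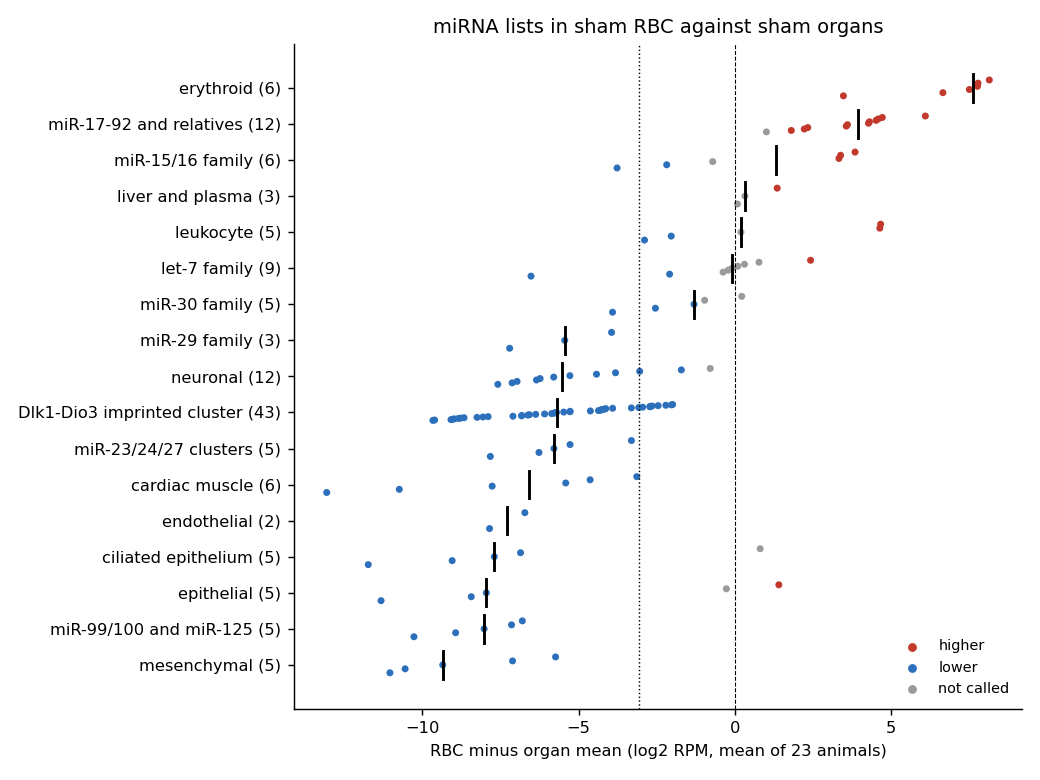
Log2 difference between RBC and the organ mean (x axis, log2 RPM, mean of 23 animals) for tested members of 17 miRNA lists (rows, number tested in brackets). Points are miRNA coloured by the limma call, black bars are list medians, and the dotted line is the median of all 440 tested (-3.06). Medians run from 7.64 (erythroid) to -9.35 (mesenchymal).

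Liver and plasma markers were checked because blood fractions hold some plasma. MiR-122-5p of hepatocytes had a median of 2.40 RPM in RBC, but 4129 RPM in the C3H female 2075 and 892 RPM in the C3H female 2073, and the difference from organs (0.33 ± 0.60) was not called. MiR-192-5p differed by 0.09 ± 0.11 and was not called, and miR-194-5p was higher by 1.36 ± 0.10. The part of plasma in the RBC values was not tested.

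The arms of a hairpin are cut from the same precursor and may be kept to different degrees. Both arms were tested for 120 hairpins. In 92 both were called, 10 with both higher, 77 with both lower and 5 in opposite directions, beside 13.6% higher and 71.6% lower of all miRNA tested. MiR-106b-5p rose by 4.28 while miR-106b-3p fell by 3.30 (2.10 RPM in RBC, 20.7 RPM in organs). The other 4 were miR-222, miR-296, miR-324 and miR-425. Under quantile normalisation the lower arms miR-106b-3p, miR-222-5p, miR-324-5p and miR-425-3p changed sign, and of the 5 hairpins miR-296 alone kept arms of opposite sign. The widest gap was that of miR-30a: miR-30a-5p kept 1704 to 7176 RPM in RBC (-1.30 ± 0.11), whereas miR-30a-3p had 0.238 to 9.41 RPM in RBC and 573 to 1640.4 RPM in the organ libraries (-8.99 ± 0.24). MiR-30e showed a gap of like size, with miR-30e-5p at 4462 RPM and miR-30e-3p at 5.34 RPM in RBC. The arms of miR-142a (4.65 and 4.67) and of miR-17 (3.61 and 3.66) were alike.

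**Figure D5:**
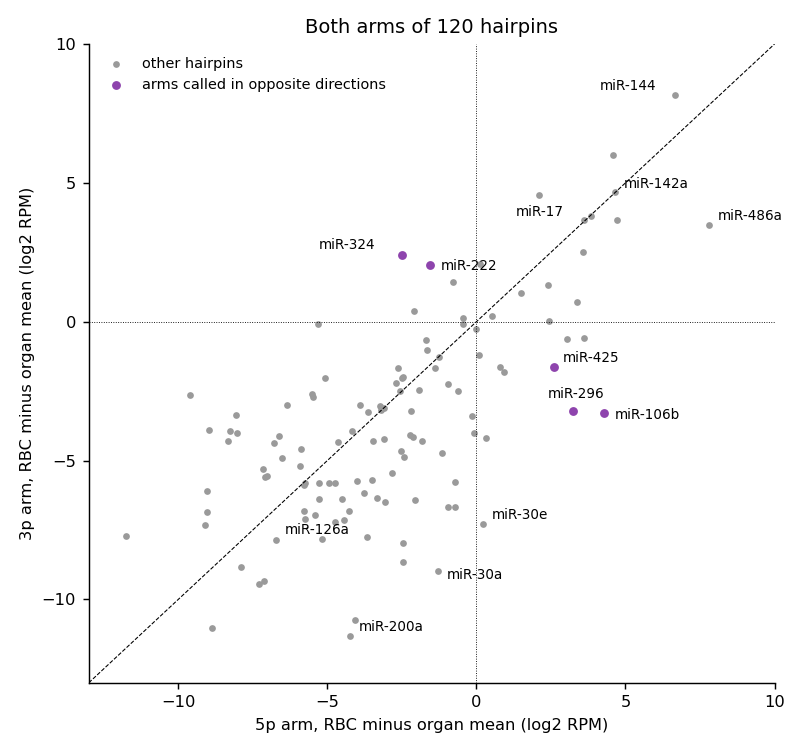
Log2 difference between RBC and the organ mean for the 3p arm (y axis, log2 RPM) against the 5p arm (x axis, log2 RPM) of 120 hairpins, means of 23 animals. The dashed line marks equal differences, and purple points mark the 5 hairpins whose arms were called in opposite directions. MiR-30a lies 7.69 below the line.

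Of 38 clusters of hairpins on 1 strand with gaps of at most 10000 bases and members tested from at least 2 hairpins, 2 had all tested miRNA higher (that of miR-144 and miR-451a, and that of miR-15b and miR-16-2), 20 had all lower and 4 had some higher and some lower, again beside 71.6% lower of all miRNA. The clusters in Mcm7 and of miR-191 and miR-425 were mixed through miR-106b-3p and miR-425-3p alone, which changed sign under quantile normalisation. In the miR-221/222 cluster, miR-222-3p rose (2.06) and its neighbour miR-221-3p fell (-6.95), with 205 and 2.96 RPM in RBC. The called sets were close in composition and length: median GC content was 45.5% for higher and 47.6% for lower miRNA, both had a median length of 22 bases, and a 5′ U was found in 40.4% and 43.1%. The 5p arm made up 57.4% of the higher and 44.5% of the lower miRNA that had a sequence and an arm in their name. These differences were not tested.

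The difference between RBC and organs also varied with strain and sex. Between C3H and C57 females, 13 miRNA had a higher and 16 a lower difference in C3H (2.95% and 3.64% of those tested, 6.59% together). Within letter A these were 17 and 28, and within letter B 28 and 45. MiR-31-5p was at 413 to 693 RPM in RBC of C3H females and at 85.7 to 143.8 RPM in C57 females, with no overlap. Its RBC minus organ difference was 2.24 ± 0.19 higher in C3H (SE, limma with Benjamini-Hochberg adjustment, adjusted p = 4.86e-09), of which 2.15 lay in RBC and -0.09 in organs. MiR-140-5p, made in an exon of Wwp2, was lower in C3H by 1.25 ± 0.14, at 661 to 853 against 997 to 1543 RPM in RBC. Its RBC level was 0.74 lower and its organ level 0.51 higher in C3H on the log2 scale. MiR-497a-5p was lower by 1.43 ± 0.21 and miR-379-5p, at most 7.996 RPM in the RBC of any C3H female, higher by 2.93 ± 0.54. MiR-201-3p had no read in RBC, so its difference (-1.64) lay in the organs. All 5 kept their sign within letter A and within letter B, a mark in the labels whose meaning is not stated, and strain and month could not be told apart.

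Between C57 females and males, 50 miRNA had a higher and 16 a lower difference in females (11.4% and 3.64% of those tested, 15.0% together), and without animal 1085 these were 34 and 16. All C57 males were 8 to 10 and all C57 females 10 to 12 weeks old at exposure, so age and sex could not be told apart. Within letter A they were 8 and 2, and within letter B 111 and 39. MiR-150-5p was at 20.1 to 86.7 RPM in RBC of females and at 92.9 to 278 RPM in males, with a difference lower by 2.21 ± 0.36 in females (adjusted p = 3.3e-04 by limma with Benjamini-Hochberg adjustment), all of it in RBC (-2.23, organs -0.02). MiR-486a-5p was at 2750 to 7102 RPM in RBC of females and at 8696 to 14311 RPM in males, again with no overlap. Its difference was lower by 2.29 ± 0.39 in females, whose RBC level was 1.02 lower and organ level 1.28 higher on the log2 scale. MiR-542-3p went the other way, at 22.9 to 73.4 RPM in females and 8.56 to 23.7 RPM in males, higher by 1.73 ± 0.31. MiR-208b-3p (1.65) and miR-99a-3p (1.20) had no read in RBC, so theirs lay in the organs, and miR-99a-3p was not called without animal 1085. Females of letter B, 3 animals with 1085 among them, had miR-16-5p at 36.8% to 38.5% of RBC reads against 45.9% to 55.9% in the 4 of letter A. Within letter A the sex differences were -1.76 for miR-150-5p, -1.21 for miR-486a-5p and 1.22 for miR-542-3p, and within letter B -2.78, -3.61 and 2.30.

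The series also holds 12 mice irradiated to the whole thorax, 7 C3H females, 4 C57 males and 1 C57 female, a mix of strain and sex unlike that of the sham animals. In them the same contrast gave 53 higher and 309 lower of 425 miRNA tested (12.5% and 72.7%, 85.2% together). Of the 60 higher in sham animals 50 were higher there (83.3% of the sham list, 94.3% of the irradiated list). Of the 315 lower, 300 were lower there (95.2% and 97.1%), and none was called in the opposite direction. MiR-451a differed by 7.23 ± 0.36, miR-16-5p by 3.09 ± 0.13 and miR-1a-3p by -12.91 ± 0.81. MiR-21a-5p, a miRNA of injury and inflammation, stood at 0.93 ± 0.13 in sham and at -0.19 ± 0.23 in irradiated animals and was called in neither. The difference between sham and irradiated animals was not tested.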

How the data were processed

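Mature miRNA were counted in RBC, heart, lung, brain and WBC libraries. Per the labels and methods, the authors prepared libraries with a QIAseq kit, trimmed the reads, aligned them to mouse miRNA of the mm10 build in BaseSpace, and left out runs of low depth. Deposited tables hold raw read counts of 1915 miRNA, without normalisation by the authors. Whether molecular identifiers were counted is not stated. The SD and SE given are taken over animals, and counting error was not separated from them. Each replicate is a separate animal by its code.

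Counts were filtered (filterByExpr of edgeR 4.0.16, 10 counts, total of 15, 440 miRNA kept), 0.5 was added, and log2 RPM of the library total was taken. The per-animal difference was tested with limma 3.58.1 (R 4.3.3, two-sided, trend on abundance, Benjamini-Hochberg adjustment over the miRNA tested) and called at an adjusted p under 0.05 and at least 2.25-fold, the fold of the study. The quantile step of the study was an alternative, since tissues need not share a distribution. Strain and sex were fitted as 3 groups. Other alternatives were TMM factors, 5 counts added, other filters, an arithmetic organ mean, 1 strain or letter at a time, unpaired tests, edgeR and DESeq2 1.42.0. Leaving out animals 1085 and 1052, and letters for strain and sex, were added after seeing the data.

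On simulated data, 193 of 193 miRNA changed by 2 on the log2 scale were called in a comparison of RBC with the organ mean (420 tested). Of the unchanged ones 0 were called, although 4 had an adjusted p under 0.05. The simulation gave all tissues the same mean levels and drew as many rises as falls. It therefore cannot tell how the calls fare under a shift of shares such as that of the data. The labels give the same animal code to all tissues of a mouse, which sets the pairing. Over 121 miRNA, deviations from group means in RBC and organs had a median correlation of -0.04 across the 23 animals (5 above 0.1). Every pair of RBC libraries within a group differed by more than sampling noise (smallest chi-square per degree of freedom 33.8 in 77 pairs). Hairpin positions were those of RefSeq (GRCm38.p6), and host genes those of GENCODE.

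Named miRNA were the 10 most abundant in RBC, up to 15 with the largest rise among those at 100 RPM or more in RBC, up to 15 with the largest fall among those at 100 RPM or more in organs, up to 5 with the smallest adjusted p for strain and for sex, and members of 17 lists. The comparison, its members and the lists were chosen with earlier results of these data known. Other names are examples of a count, chosen after their values were seen.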

Additional observations from a re-analysis of the deposited data

Results flagged for a closer look

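The RBC minus organ difference was not the same in the groups for 29 miRNA between C3H and C57 females and for 66 between C57 females and males, by a test of the difference itself (limma with Benjamini-Hochberg adjustment). Among the miRNA named above, the strain differences (C3H minus C57, log2 scale) were 2.24 for miR-31-5p, -1.25 for miR-140-5p, -1.43 for miR-497a-5p, -1.64 for miR-201-3p, 2.93 for miR-379-5p, 2.16 for miR-218-5p, 1.97 for miR-100-5p, 1.89 for miR-382-5p and 1.83 for miR-411-5p. The last 4 and miR-379-5p were at most 7.996 RPM in the RBC of any C3H female.

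The sex differences in C57 (female minus male) were 1.65 for miR-208b-3p, -2.21 for miR-150-5p, -2.29 for miR-486a-5p, 1.73 for miR-542-3p, 1.20 for miR-99a-3p, -2.08 for miR-486b-5p, -1.26 for miR-92a-3p, 1.24 for miR-18a-5p and 2.249 for miR-1a-3p. Without animal 1085, miR-99a-3p (1.13), miR-18a-5p (1.09) and miR-1a-3p (1.70) were not called. Age at exposure and sex could not be told apart in C57.

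In the 8 C3H animals, 39 measures were examined for a single animal far from the others, and 0 passed Dixon's limit, which chance passes in about 1 in 20.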

How the results depend on the processing

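Over 17 settings, 2188 of 2336 values of the named miRNA kept their direction and their side of the threshold, 39 lost the call, 55 gained it and 54 changed sign. Shares of miRNA called moved with scaling, filters and, for strain and sex, the letter. Against the organ mean, the share higher (13.6%) was 22.0% with TMM factors, 22.3% with edgeR and 32.7% with quantile normalisation, which gave 34.1% lower. The share higher was 8.01% of 1286 miRNA with a looser filter, which gave 32.6% lower. With a stricter filter it was 23.8% of 105, and 41.9% were lower. Against brain, TMM gave 24.3% and edgeR 23.9% higher. In irradiated animals TMM gave 20.0% higher. Near-absent miRNA numbered 56 with an organ minimum of 50 RPM and 111 by the highest organ. The cause was not tested.

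The pairing changed 0 of 440 calls against the organ mean, heart, lung or brain: with no replicate block, 13.6% were higher and 71.6% lower than the organ mean, as with it. Without animal 1085, 13.4% were higher and 71.8% lower than the organ mean, 3.18% higher and 3.18% lower by strain, and 7.73% higher and 3.64% lower by sex. For strain, 5.23% were higher and 6.59% lower with no fold minimum, 4.55% higher against all C57, 2.27% lower with TMM, 6.36% lower in letter A, and 6.36% higher and 10.2% lower in letter B. For sex, 7.05% were higher and 5.68% lower with TMM, 24.3% and 7.95% with no fold minimum, 1.82% and 0.455% in letter A, and 25.2% and 8.86% in letter B. The cause was not tested.

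Of the miRNA called against the organ mean, 92 changed sign under quantile normalisation and 4 under TMM. Among the named miRNA, TMM gave 1.07 for let-7f-5p, 0.57 for miR-322-5p, 0.91 for let-7b-5p, 1.19 for let-7g-5p, 0.32 for miR-30d-5p, 0.49 for miR-219a-5p and 1.01 for miR-141-3p. With edgeR these were 1.07, 0.62, 0.90, 1.21, 0.34, 0.51 and 0.65, and with DESeq2, without miR-30d-5p, 0.72, 0.26, 0.55, 0.85, 0.22 and 0.30. Quantile normalisation gave 1.43 for miR-322-5p, 0.52 for miR-497a-5p, 0.49 for let-7b-5p, 0.88 for let-7g-5p, 0.13 for miR-30d-5p, 0.26 for miR-150-5p, 0.63 for miR-155-5p, 0.26 for miR-499-5p, 2.66 for miR-219a-5p, 1.72 for miR-141-3p, 0.38 for miR-329-3p, 0.95 for miR-410-3p, 0.35 for miR-433-3p, 0.50 for miR-496a-3p, 0.93 for miR-667-3p, 0.75 for miR-673-3p and 0.36 for miR-673-5p. C3H alone gave 0.059 for let-7f-5p, 0.064 for miR-322-5p, 0.092 for let-7g-5p, -0.12 for miR-223-3p, 0.13 for miR-141-3p and -0.043 for miR-192-5p. C57 alone gave -0.051 for miR-30e-5p and -0.49 for miR-122-5p. Letter A gave -0.0068 for miR-192-5p. Letter B gave 0.077 for let-7g-5p, 0.27 for miR-141-3p and -0.81 for miR-122-5p. The arithmetic organ mean gave -0.37 for miR-223-3p, -1.52 for miR-200c-3p, -1.23 for miR-449a-5p, -0.35 for miR-122-5p and -0.00020 for miR-192-5p. The cause was not tested.

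At 2551217 to 4702286 reads a library, 88 of the 440 miRNA had no read in any RBC library, and their falls could not be sized beyond the floor of 3 reads.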
